A study of Mus musculus with 72 samples.

Results

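The 36 genes described here encode the aminoacyl-tRNA synthetases of the mouse, 20 cytosolic or dual-compartment enzymes and 16 mitochondrial ones. They were taken by symbol from a count table of 55487 genes, with symbols ending in 2 read as mitochondrial. The rule itself used no measured value, but the genes were chosen with earlier results of these data known. All 36 had counts in every library and all 36 passed the low-count filter in each fit. In mm10 coordinates Qars, the enzyme for glutamine, lies on chromosome 9 from 108507706 to 108515941 (plus strand), Aars on chromosome 8 from 111033144 to 111057664 (plus strand) and Wars2 on chromosome 3 from 99141068 to 99239186 (plus strand), and counts cover the annotated exons of each gene.

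The study followed CD8 T cells of OT-I mice, a strain whose T cell receptor sees the ovalbumin peptide SIINFEKL, through activation with and without interference with glutamine use. Splenocytes freed of red cells were cultured in RPMI with serum, and stimulation was the peptide at 10 ng/mL together with human IL-2 at 100 IU/mL. The 13 RNA groups of 4 libraries each were unstimulated cells and, at 4 h, 24 h and 48 h of stimulation, cells given vehicle, cells given CB-839 at 1 µM, cells given DON at 1 µM, and cells in glutamine-free medium. CB-839 is an inhibitor of glutaminase, the enzyme that turns glutamine into glutamate, and DON is a glutamine analog that blocks enzymes which use glutamine. Chromatin was profiled by CUT&RUN at 48 h for the histone marks H3K27ac and H3K27me3. A single vehicle group served both solvents the labels name (DMSO and PBS), so every treatment shares its vehicle libraries with the others of that time. Whether libraries A to D of a group are separate cultures or animals is not given in the labels, and every p-value therefore rests on the spread among these libraries, which may be technical.

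A synthetase joins an amino acid to its tRNA, Eprs doing so for both glutamate and proline, and the charged tRNA carries it to the ribosome. Mitochondria translate their own messages with a second set of enzymes that are also encoded in the nucleus, while Gars and Kars supply both compartments. No mitochondrial gene exists for glutamine: Ears2 loads glutamate on the glutamine tRNA, and an amidotransferase (Gatb, Gatc, Qrsl1) turns it into glutamine on the tRNA. In the cytosol 8 synthetases (Dars, Eprs, Iars, Kars, Lars, Mars, Qars, Rars) sit in a multi-synthetase complex on the scaffold proteins Aimp1, Aimp2 and Eef1e1. Uncharged tRNA activates the kinase GCN2 (Eif2ak4), which raises translation of the transcription factor ATF4, and many cytosolic synthetase genes are known ATF4 targets. ATF4 with a C/EBP partner binds an element written TGATGCAA.

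Promoters from RefSeq (GRCm38.p6, 250 bases before to 50 bases after the start) were matched to 27 of the 36 genes. TGATGCAA on either strand lay in the promoters of Aars, Iars, Tars and Yars, which is 4 of 13 matched cytosolic genes and 0 of 14 mitochondrial ones. It lay in 0.895% of all 32851 promoters of that length, or, counted per gene, in 1.03% of 27025 genes. Counted from the RefSeq start, the element was 112 bases before it in Aars and 15 bases before it in Tars. It began 8 bases after that start in Iars and 4 bases after it in Yars. RefSeq starts can differ from the gene bounds given above, and the stretches printed for Aars and Qars lie inside those bounds. These 4 promoters are printed with that of Qars, the glutamine enzyme, in which the letters were not found, from 150 bases before to 30 bases after the start. Capitals mark the element, written as TTGCATCA where it lies on the complementary strand.
Aars: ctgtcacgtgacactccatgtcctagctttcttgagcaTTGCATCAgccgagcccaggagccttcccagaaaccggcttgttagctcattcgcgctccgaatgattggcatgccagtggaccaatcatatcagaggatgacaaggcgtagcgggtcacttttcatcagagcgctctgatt
Iars: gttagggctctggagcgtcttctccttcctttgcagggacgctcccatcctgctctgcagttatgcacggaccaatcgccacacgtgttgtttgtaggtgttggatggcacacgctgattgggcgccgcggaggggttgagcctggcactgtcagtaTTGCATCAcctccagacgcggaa
Tars: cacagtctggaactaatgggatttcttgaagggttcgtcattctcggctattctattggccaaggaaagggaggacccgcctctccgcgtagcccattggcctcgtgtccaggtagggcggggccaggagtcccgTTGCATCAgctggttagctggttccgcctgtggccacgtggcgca
Yars: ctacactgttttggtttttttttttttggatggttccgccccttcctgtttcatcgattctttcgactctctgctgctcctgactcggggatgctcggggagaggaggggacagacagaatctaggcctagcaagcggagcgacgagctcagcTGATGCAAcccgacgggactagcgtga
Qars: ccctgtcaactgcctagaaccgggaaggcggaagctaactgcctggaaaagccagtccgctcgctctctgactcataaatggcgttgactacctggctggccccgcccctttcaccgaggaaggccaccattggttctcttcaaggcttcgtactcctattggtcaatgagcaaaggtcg

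The stretches are chr8:111033692-111033871 (plus strand), chr13:49681980-49682159 (plus strand), chr15:11399629-11399808 (minus strand), chr4:129189753-129189932 (plus strand) and chr9:108507855-108508034 (plus strand). With any base at the sixth position (TGATGNAA) Gars joined the 4 genes, with its match 30 bases before its start. Such a match was held by 3.97% of all promoters and, counted per gene, by 4.51% of genes. CACGTG, a palindrome and the E-box read by MYC and related factors, was found in Aars, Iars, Tars, Farsb and Ears2. It lay in 7.15% of all promoters and, counted per gene, in 8.09% of genes. A match describes the letters in these windows and not a bound site.

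Levels per kilobase of exon set the genes in order in unstimulated cells. CPM per kilobase, CPM being a gene's count scaled to the library's size with TMM factors, was highest for Vars, the valine enzyme, at 42.1 ± 6.69 (SD, n = 4), followed by Sars, the serine enzyme, at 35.9 ± 4.77, and these neighbours did not differ beyond their spread. Aars and Cars, for alanine and cysteine, were the lowest cytosolic genes at 5.01 ± 0.733 and 4.76 ± 0.408 CPM per kilobase. The length used is that of all annotated exons of a gene (9282 bases for Aars, 3119 for Gars), so the order of genes also depends on the annotation. Tars2 was the highest mitochondrial gene at 11.6 ± 0.652 and Nars2 the lowest of all at 0.885 ± 0.0273. In vehicle at 24 h the order had changed at the top. Gars, the glycine enzyme, stood at 187 ± 7.32 CPM per kilobase, Nars, the asparagine enzyme, at 162 ± 4.93, and Kars, for lysine, at 142 ± 7.85. Vars was level with Kars at 142 ± 18.9. Qars and Cars were then the lowest of the 20 cytosolic genes at 35.1 ± 1.5 and 32.5 ± 2.62, still above Lars2, the highest mitochondrial gene at 23.7 ± 4.42. Summed over the 20 cytosolic genes, CPM per kilobase lay between 329 and 450 in the unstimulated libraries and between 1720 and 1840 in vehicle at 24 h. The 16 mitochondrial genes summed to between 80 and 97.6 and to between 166 and 183 in the same groups.

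Libraries held 25.6 to 51 M counts assigned to genes. Levels of the CD8 T cell markers Cd8a, Cd8b1 and the 3 CD3 genes summed to at least 455 CPM in every library. Summed B cell markers lay between 16.7 and 316 CPM across the 4 h libraries and between 2.48 and 13.5 CPM across those at 24 h, and the myeloid markers between 3.03 and 70.6 CPM at 4 h. Vehicle library C at 48 h stood apart. It had 8.22% of its counts in ribosomal protein genes against 4.63% to 5.4% in the other vehicle libraries of that time. Calls of named genes that change without this library are given below. As counting ignored strand, reads of overlapping genes cannot be told apart, which concerns Iars2 most (24.2% of its exon length lies under Rab3gap2 and another gene).

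Stimulation raised nearly all cytosolic genes at each time, and mitochondrial genes moved both ways at 4 h and were mostly higher at 24 h and 48 h. At 4 h 19 of 20 cytosolic genes rose and 1 fell, against 33.9% and 41% of all 18317 genes tested (74.9% either way), with a median log2 fold change of 2.24 where the median of all genes was -0.21. In these bulk libraries fewer cells of a type and less RNA per cell cannot be told apart, and a level is a share of the library's counts.

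Aars had 46.1, 48.5, 53.9 and 37.6 CPM in unstimulated libraries A to D and 464, 457, 427 and 472 CPM in vehicle at 4 h. Every stimulated library was far above every unstimulated one, a log2 fold change of 3.25 ± 0.08 (SE, edgeR adjusted p = 3.17e-17). Iars (3.15 ± 0.09), Cars (3.11 ± 0.07), Yars (2.93 ± 0.07), Tars (2.90 ± 0.07) and Nars (2.60 ± 0.07) followed, and Eprs rose by 2.47 ± 0.11. Qars was the exception: its unstimulated libraries held 154, 144, 174 and 131 CPM and its vehicle libraries at 4 h 143, 133, 127 and 130 CPM. Those groups overlapped, and the fitted change was -0.22 ± 0.06 (edgeR adjusted p = 0.00372).

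Among the 16 mitochondrial genes 7 rose and 4 fell at 4 h, with a median of 0.11. Of all genes 74.9% were called, 33.9% higher and 41% lower. Cars2, the mitochondrial cysteine enzyme, fell by 2.38 ± 0.09 on the log2 scale, from between 40.3 and 45.6 CPM to between 7.41 and 8.82 CPM. Ears2, the glutamate enzyme that starts the mitochondrial route to glutaminyl-tRNA, held 17.7, 17.8, 18.6 and 16.4 CPM unstimulated and 7.67, 8.18, 7.25 and 7.80 CPM at 4 h. Its groups lay apart, with a fall of 1.23 ± 0.09 (edgeR adjusted p = 1.91e-10). Fars2 (-0.50 ± 0.08) and Hars2 (-0.30 ± 0.06) also fell, whereas Nars2 rose by 1.17 ± 0.09. B cell markers summed to at most 15.4 CPM in the unstimulated libraries and to between 20.1 and 120 CPM in vehicle at 4 h, and CD8 T cell markers to between 2680 and 3300 CPM and between 841 and 866 CPM, and their part in the 4 h result was not tested.

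By 24 h all 20 cytosolic genes had risen (median 2.32, with 38.7% of all genes higher and 84.2% called either way) and 12 mitochondrial genes had risen with 3 lower (median 0.91, with 45.5% of all genes lower). Aars (3.24 ± 0.08), Iars (3.17 ± 0.09), Yars (2.86 ± 0.07) and Mars, the methionine enzyme (2.78 ± 0.08), led. Qars was now higher, at 234, 243, 220 and 227 CPM, above every unstimulated library (0.49 ± 0.06, edgeR adjusted p = 5.56e-07). Lars2, the mitochondrial leucine enzyme, went from 105, 69.9, 91.0 and 64.0 CPM unstimulated to 319, 266, 264 and 200 CPM, so its lowest vehicle library stood above its highest unstimulated one. Ears2 was still lower than in unstimulated cells (-0.55 ± 0.09). Markers of other cells had by then fallen: 3 of 5 B cell, 1 of 2 NK cell, 3 of 4 tested myeloid and 3 of 3 erythroid markers, beside the 45.5% of all genes that were lower.

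At 48 h the 20 cytosolic genes were again all higher (median 2.03, beside 38.3% of all genes higher and 83.4% called either way), and 11 mitochondrial genes were higher with Ears2 (-0.57 ± 0.09) and Hars2 (-0.27 ± 0.06) lower (45.1% of all genes). The largest changes were those of Aars (2.94 ± 0.08), Iars (2.82 ± 0.08), Yars (2.63 ± 0.07) and Rars, the arginine enzyme (2.43 ± 0.07). Scaling by library totals alone moved the median of all genes in the 3 comparisons with unstimulated cells from between -0.21 and -0.16 to between -0.48 and -0.44, and turned the sign of Fars2 at 24 h and of Tars2 and Wars2 at 48 h, none of the cytosolic genes.

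At 48 h the markers of other cells were lower in 5 of 5 B cell (median -3.83), 2 of 2 NK cell (-5.07), 4 of 4 tested myeloid (-4.12) and 3 of 3 erythroid markers (-6.10). B cell markers then summed to between 2.97 and 3.98 CPM and myeloid markers to between 0.151 and 0.396 CPM, from between 2.96 and 18.6 CPM for the latter in unstimulated cells. All 5 CD8 T cell markers were lower as well at each time, with a median of -1.55 at 24 h and -0.86 at 48 h. The part of these markers in the 24 h and 48 h results was not tested.

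**Figure D1:**
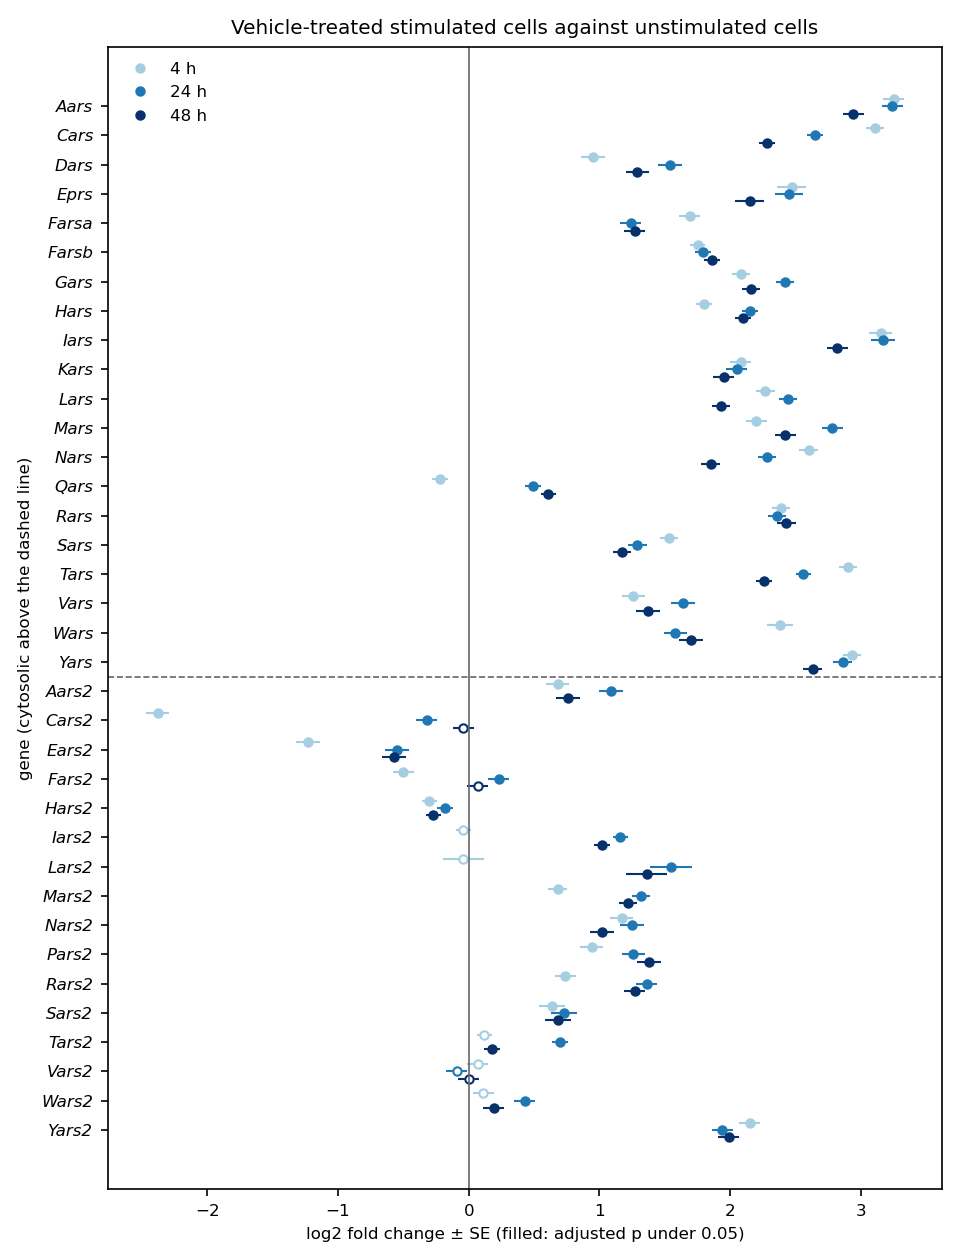
Log2 fold change of each of the 36 synthetase genes in vehicle at 4 h, 24 h and 48 h against unstimulated cells (n = 4 libraries per group), with bars for the SE and filled points for an edgeR adjusted p under 0.05. Cytosolic genes lie to the right of 0 at 24 h and 48 h, Qars is the cytosolic gene below 0 at 4 h, and Cars2 (-2.38) and Ears2 (-1.23) are lowest at 4 h.

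With CB-839 the synthetases that passed the threshold were mostly lower at 4 h and 24 h and higher at 48 h. At 4 h 1 cytosolic gene rose and 5 fell and 6 mitochondrial genes fell, beside 12.5% of all 18274 genes tested (5.85% higher and 6.64% lower). Mars held 279, 274, 257 and 279 CPM in vehicle and 187, 206, 174 and 195 CPM with CB-839. No treated library reached a vehicle one (-0.54 ± 0.06, edgeR adjusted p = 1.11e-05). Dars, the aspartate enzyme (-0.36 ± 0.05), was lower too, as were the mitochondrial genes Iars2 (-0.57 ± 0.05), Rars2 (-0.52 ± 0.06), Nars2 (-0.40 ± 0.07) and Wars2 (-0.38 ± 0.08).

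Qars was the gene that rose, from 143, 133, 127 and 130 CPM in vehicle to 154, 168, 149 and 158 CPM (0.22 ± 0.04, edgeR adjusted p = 0.00249), and the 2 groups did not overlap. For the other enzymes of glutamate and asparagine the values were -0.14 ± 0.06 for Eprs, -0.07 ± 0.10 for Ears2 and -0.13 ± 0.06 for Nars. None of these 3 passed the threshold. Libraries of the same letter deviated together here, and with the letter as a block Eprs (-0.14, edgeR adjusted p = 0.042), Aars (-0.17, adjusted p = 0.0209), Sars2 (-0.25, adjusted p = 0.0322) and Tars2 (-0.14, adjusted p = 0.0302) passed as well. The B cell markers summed to between 49.4 and 227 CPM in the CB-839 libraries and to between 20.1 and 120 CPM in vehicle at this time, and their part in these results was not tested.

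At 24 h 4 of the 36 genes passed, beside 4.95% of all 16269 genes tested (2.47% higher, 2.48% lower). Qars rose again, from between 220 and 243 CPM to between 253 and 263 CPM (0.18 ± 0.04, edgeR adjusted p = 0.0218). Sars (-0.30 ± 0.07), Iars2 (-0.26 ± 0.04) and Tars, the threonine enzyme (-0.18 ± 0.05), fell. Sars held 531, 523, 467 and 446 CPM in vehicle libraries A to D and 435, 413, 391 and 350 CPM in the CB-839 libraries of the same letters, lower in each letter and with groups that did not overlap. Libraries of the same letter deviated together at this time, and with the letter as a block 10 genes passed, Qars higher and 9 lower, 8 of them cytosolic. The 6 added were Aars (-0.21, edgeR adjusted p = 0.00398), Gars (-0.19), Cars (-0.17), Dars (-0.17), Yars (-0.16) and Mars (-0.13, adjusted p = 0.0498). Leaving out single libraries took the count to between 2 and 5, with 2 left without vehicle A, vehicle B, CB-839 B or CB-839 C, and a fit of all 52 libraries left 0.

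At 48 h the direction was the opposite: 12 cytosolic genes and Vars2 rose and none of the 36 fell, beside 15.2% of all 16173 genes tested (8.50% higher and 6.73% lower). Lars, the leucine enzyme, held 302, 309, 256 and 299 CPM in vehicle and 412, 387, 424 and 396 CPM with CB-839 (0.47 ± 0.06, edgeR adjusted p = 6.71e-05). The treated libraries were all above the vehicle ones, as they were for Cars (0.46 ± 0.05), Nars (0.42 ± 0.06), Yars (0.35 ± 0.05), Tars (0.34 ± 0.05) and Iars (0.31 ± 0.06). Nars had 548, 555, 478 and 539 CPM in vehicle and 725, 678, 735 and 703 CPM in treated cells. Qars (0.09 ± 0.04, edgeR adjusted p = 0.169), Eprs (0.15 ± 0.09), Ears2 (-0.23 ± 0.09) and Nars2 (0.03 ± 0.10) did not pass.

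Of the 8 genes of the multi-synthetase complex 3 rose (median 0.12) and of the 12 cytosolic genes outside it 9 rose (median 0.28). Of all genes 8.5% were higher. RLE scaling gave 12 higher and 2 lower in place of 13 and 0. Without vehicle library C the count was 15 higher and 3 lower, and Qars then passed (0.12, edgeR adjusted p = 0.0392).

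The difference between the CB-839 effects at 48 h and 24 h was tested across the 48 stimulated libraries. It was positive for 10 cytosolic genes and for none of the mitochondrial ones (4 of the 16 had an unadjusted p under 0.05, and DESeq2 also called 0), beside 2.15% of all 19925 genes tested (1.40% higher at 48 h, 0.748% lower). These were Cars (0.65 ± 0.08, edgeR adjusted p = 4.42e-07), Sars (0.60 ± 0.09), Nars (0.59 ± 0.09), Lars (0.56 ± 0.08), Tars (0.53 ± 0.07), Yars (0.53 ± 0.08), Aars (0.50 ± 0.08), Gars (0.47 ± 0.08), Iars (0.44 ± 0.08) and Mars (0.36 ± 0.09). For Qars the difference was -0.06 ± 0.06 and did not pass.

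**Figure D2:**
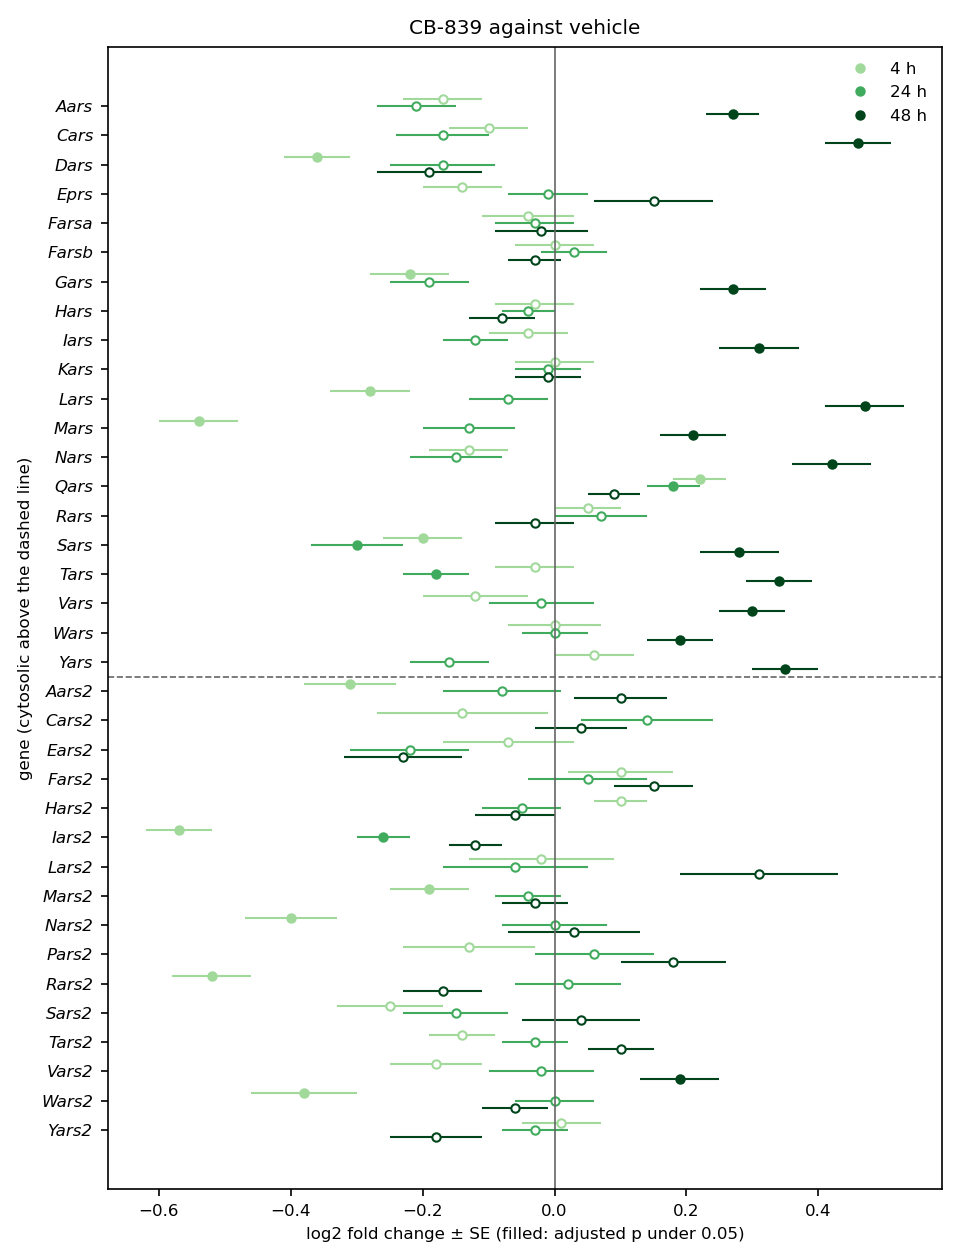
Log2 fold change of the synthetase genes with CB-839 against vehicle at 4 h, 24 h and 48 h (bars SE, filled points an edgeR adjusted p under 0.05, n = 4 libraries per group). Most cytosolic genes lie left of 0 or near it at 4 h and 24 h and right of it at 48 h, while Qars (0.22, 0.18 and 0.09) lies right of 0 each time.

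DON lowered the cytosolic synthetases, and the fall grew with time. At 4 h none of the 36 genes passed, their fold changes lying between -0.15 and 0.09. No gene of the 18274 tested was called by edgeR (0%), 1862 genes but 0 of the 36 had an unadjusted p under 0.05, and DESeq2 called 38 genes in all and 0 of the 36.

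At 24 h 19 of 20 cytosolic genes fell and none rose, with a median of -0.50, beside 58% of all genes called (28.1% higher, 29.9% lower). Tars held 428, 434, 418 and 406 CPM in vehicle and 223, 225, 224 and 237 CPM with DON (-0.87 ± 0.05, edgeR adjusted p = 1.32e-11). Aars held 519, 515, 448 and 426 CPM in vehicle and 263, 259, 259 and 257 CPM with DON (-0.85 ± 0.06). In both genes the treated libraries were close together and far below vehicle. Cars (-0.86 ± 0.07), Lars (-0.84 ± 0.06), Farsa, the alpha chain of the phenylalanine enzyme (-0.69 ± 0.06), and Yars, for tyrosine (-0.68 ± 0.06), followed. Rars was the cytosolic gene that did not pass, at -0.10. Its vehicle libraries held 271, 278, 294 and 315 CPM and its DON libraries 243, 252, 252 and 310 CPM. The highest of these was DON library D, the shallowest of all at 25.6 M counts, so this result leans on that library.

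Enzymes of the glutamine family fell by different amounts. Nars was at 414, 397, 416 and 507 CPM against 699, 727, 720 and 679 CPM in vehicle (-0.68 ± 0.07), Eprs was at -0.30 ± 0.06 on the log2 scale, and Qars was at 202, 204, 197 and 195 CPM against 234, 243, 220 and 227 CPM (-0.18 ± 0.04, edgeR adjusted p = 0.00127). Scaling by library totals alone put the Qars change at 0.01. Of the complex 7 of 8 genes fell with a median of -0.34, and outside it 12 of 12 with a median of -0.68. Of all genes 29.9% were lower.

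The mitochondrial genes did not move together with DON at 24 h: 4 rose and 7 fell, with a median of -0.01. Of all genes 58% were called, 28.1% higher and 29.9% lower. Wars2, the mitochondrial tryptophan enzyme, held 17.2, 18.4, 17.7 and 17.6 CPM in vehicle and 34.7, 34.7, 35.6 and 31.7 CPM with DON (0.97 ± 0.06, edgeR adjusted p = 6.85e-11), the largest rise of the 36. Mars2 rose by 0.30 ± 0.05. Ears2 was at 8.45, 8.51, 9.14 and 8.45 CPM against 13.4, 14.6, 11.9 and 12.7 CPM in vehicle (-0.58 ± 0.09), and Nars2 was at 0.03 ± 0.08. Under scaling by library totals alone the median of all genes was 0.18, the cytosolic genes counted 0 higher and 15 lower, and the mitochondrial ones 8 higher and 2 lower, where TMM gave 4 and 7, so the direction of the mitochondrial set depends on the scaling. CD8 T cell markers summed to between 1750 and 1910 CPM with DON at 24 h and to between 1210 and 1300 CPM in vehicle, and their part was not tested.

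At 48 h the cytosolic median reached -1.10, again with 19 genes lower and none higher, beside 71.2% of all genes called (35.6% each way). Farsb, the beta chain of the phenylalanine enzyme, fell by 1.58 ± 0.04 on the log2 scale (edgeR adjusted p = 9.1e-16), from between 190 and 204 CPM to between 63.9 and 66.7 CPM. Lars held 302, 309, 256 and 299 CPM in vehicle and 91.3, 102, 103 and 91.4 CPM with DON (-1.58 ± 0.06). Rars, which did not pass at 24 h, was at 97.2, 104, 109 and 104 CPM against 315, 334, 281 and 301 CPM (-1.55 ± 0.06). Tars (-1.52 ± 0.05), Cars (-1.47 ± 0.05) and Iars (-1.44 ± 0.06) were the next largest falls.

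Falls were smaller in other cytosolic genes. Gars held 513, 509, 453 and 505 CPM in vehicle and 218, 238, 237 and 224 CPM with DON (-1.10). Wars, the tryptophan enzyme, held 218, 199, 230 and 222 CPM in vehicle and 140, 138, 131 and 130 CPM with DON (-0.67). Both genes had no overlap between the groups, and Mars (-0.48) and Kars (-0.38) fell least of the 19.

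Nars fell by 1.24 ± 0.06 on the log2 scale, to 214, 229, 240 and 208 CPM, and Eprs fell by 0.76 ± 0.09. Qars was again the exception: its DON libraries held 275, 271, 265 and 260 CPM, and its vehicle libraries 256, 237, 271 and 253 CPM. Those groups overlapped (0.09 ± 0.04, edgeR adjusted p = 0.0785), and without vehicle library C the change was 0.11 (adjusted p = 0.0183). In CPM per kilobase Qars had rank 8 of the 36 in DON at 48 h, at 40.7 ± 1.0, just above Wars at 39.1 ± 1.5, from which it did not differ beyond the spread, whereas Kars was highest at 102 ± 2.01. Summed cytosolic levels were between 787 and 835 CPM per kilobase in the DON libraries and between 1520 and 1610 in vehicle, groups that did not overlap.

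The mitochondrial genes at 48 h counted 7 higher and 5 lower with a median of 0.06. Of all genes 71.2% were called, 35.6% each way. Wars2 was at 37.2, 36.6, 36.5 and 36.6 CPM against 15.8, 14.8, 15.3 and 15.3 CPM in vehicle (1.28 ± 0.05, edgeR adjusted p = 8.54e-14). Cars2 (0.83 ± 0.07), Fars2 (0.76 ± 0.06), Mars2 (0.63 ± 0.05), Pars2, for proline (0.37 ± 0.08), and Hars2 (0.17 ± 0.06) rose as well. Hars2 was at 0.13 without vehicle library C (adjusted p = 0.0511).

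Ears2 had the largest fall of the 16, from 13, 10.8, 14.7 and 14.1 CPM to 6.05, 5.63, 4.99 and 5.32 CPM (-1.24 ± 0.09, edgeR adjusted p = 8.18e-10), and every DON library lay below every vehicle one. Nars2 fell by 0.50 ± 0.10, and Yars2, Rars2 and Iars2 were the other mitochondrial genes that fell. At the same time the CD8 T cell markers summed to between 2450 and 2510 CPM with DON and 1640 and 1780 CPM in vehicle, the B cell markers to between 8.69 and 9.95 CPM and 2.97 and 3.98 CPM, and ribosomal protein genes held 6.85% to 7.63% of the counts. Whether these shares have a part in the synthetase result was not tested.

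The DON effect differed between 48 h and 24 h in 27 of the 36 genes, beside 32.7% of all genes tested (15.4% in the positive and 17.3% in the negative direction). It was more negative at 48 h for 16 cytosolic genes, foremost Rars (-1.44 ± 0.09, edgeR adjusted p = 3.13e-17), Farsb (-1.24 ± 0.07) and Dars (-1.02 ± 0.10). Qars was the cytosolic gene with a positive difference (0.28 ± 0.06, adjusted p = 0.00033). Of the mitochondrial genes 6 had a positive difference, among them Fars2 (0.72 ± 0.12), Cars2 (0.68 ± 0.15) and Wars2 (0.32 ± 0.08), and 4 a negative one, among them Rars2 (-0.78 ± 0.10), Ears2 (-0.65 ± 0.13) and Nars2 (-0.52 ± 0.12).

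**Figure D3:**
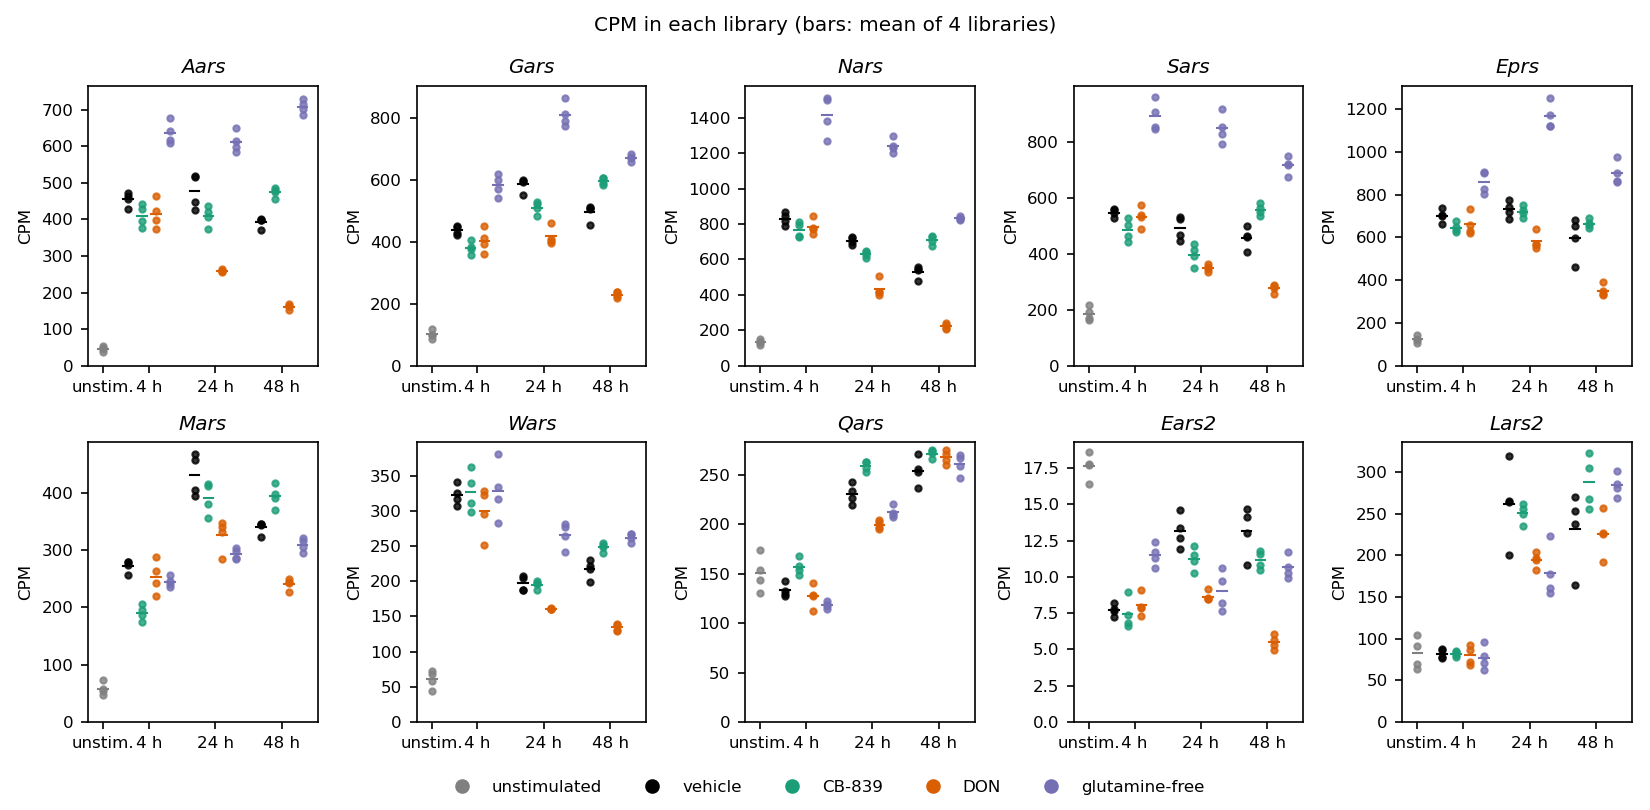
CPM in each library (points) and group mean (bars) of Mars, Wars, Aars, Gars, Nars, Qars, Eprs, Sars, Lars2 and Ears2 in the 13 groups, with an axis per gene. DON libraries at 48 h are the lowest stimulated ones in panels such as Aars (152 to 169 CPM) and Nars (208 to 240 CPM), and glutamine-free libraries are the highest of the 48 h ones in both, whereas Qars stays between 237 and 275 CPM in all 48 h groups.

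Glutamine-free medium split the cytosolic set. At 4 h 11 cytosolic genes rose and 4 fell (median 0.27), and of the mitochondrial genes 1 rose and 8 fell (median -0.19), beside 37.6% of all genes called (16.2% higher, 21.4% lower). Nars led the rises: vehicle held 843, 818, 789 and 868 CPM and glutamine-free medium 1510, 1380, 1270 and 1500 CPM (0.80 ± 0.06, edgeR adjusted p = 1.84e-08). Sars (0.73 ± 0.06), Yars (0.71 ± 0.06), Lars (0.64 ± 0.06) and Tars (0.57 ± 0.06) rose with groups that lay apart, and Eprs rose by 0.32 ± 0.06. Ears2, lower after stimulation alone, was the mitochondrial gene that rose, from between 7.25 and 8.18 CPM to 10.6, 11.3, 11.7 and 12.4 CPM (0.60 ± 0.10, edgeR adjusted p = 6.4e-05).

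Kars (-0.58 ± 0.06), Farsa (-0.51 ± 0.07) and Qars (-0.15 ± 0.04, edgeR adjusted p = 0.0123) were among the cytosolic falls at 4 h. The mitochondrial falls were led by Aars2 (-0.90 ± 0.07), Cars2 (-0.77 ± 0.14), Pars2 (-0.71 ± 0.10) and Iars2 (-0.56 ± 0.05). Nars2 was at -0.18 ± 0.07 (adjusted p = 0.0501). B cell markers summed to between 16.7 and 316 CPM and myeloid markers to between 3.78 and 70.6 CPM across the 4 glutamine-free libraries, against at most 120 and 17.4 CPM in vehicle, and CD8 T cell markers to between 455 and 550 CPM against 841 to 866 CPM. Their part in the 4 h result was not tested.

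At 24 h 13 cytosolic genes rose and 6 fell (median 0.40) and 2 mitochondrial genes rose and 11 fell (median -0.41), beside 58.9% of all genes called (30% higher, 28.9% lower). Lars held 404, 426, 414 and 393 CPM in vehicle and 846, 790, 761 and 773 CPM without glutamine (1.00 ± 0.06, edgeR adjusted p = 3.8e-11). Nars went to 1300, 1240, 1200 and 1230 CPM from 699, 727, 720 and 679 CPM (0.86 ± 0.07), and Sars to 917, 854, 829 and 793 CPM from 531, 523, 467 and 446 CPM (0.83 ± 0.07). In all 3 genes the groups lay well apart. Eprs went from 685, 720, 776 and 741 CPM to 1250, 1170, 1120 and 1120 CPM (0.72 ± 0.06). Farsb (0.57 ± 0.05) and Tars (0.52 ± 0.05) rose too, so that the chains of the phenylalanine enzyme moved in opposite directions: Farsa fell by 0.59 ± 0.06 on the log2 scale.

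Vars fell by 0.60 ± 0.08, and Qars was at -0.07 ± 0.04, which did not pass (edgeR adjusted p = 0.146). Mars2 (-0.65 ± 0.05), Aars2 (-0.63 ± 0.09), Sars2 (-0.58 ± 0.09), Iars2 (-0.53 ± 0.04) and Ears2 (-0.50 ± 0.09) fell among the mitochondrial genes, while Nars2 was at -0.01 ± 0.08. Of the complex 4 genes rose and 3 fell (median 0.10), against 9 and 3 outside it (median 0.44), beside 30% of all genes higher and 28.9% lower.

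At 48 h 12 cytosolic genes rose and 7 fell (median 0.34), and 4 mitochondrial genes rose and 6 fell (median -0.03), beside 54.3% of all genes called (28% higher, 26.3% lower). Lars was at 609, 627, 634 and 627 CPM against 302, 309, 256 and 299 CPM in vehicle (1.11 ± 0.06, edgeR adjusted p = 7.69e-11). Aars was at 703, 730, 715 and 684 CPM against 402, 372, 398 and 398 CPM (0.86 ± 0.04), and Nars at 826, 848, 834 and 822 CPM against 548, 555, 478 and 539 CPM (0.66 ± 0.06). The deprived libraries were above every vehicle library in each of these genes.

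Sars (0.66 ± 0.06), Yars (0.61 ± 0.05) and Eprs (0.60 ± 0.09) were higher, and Farsa (-0.82 ± 0.07), Hars, for histidine (-0.47 ± 0.05), Kars (-0.44 ± 0.05) and Rars (-0.34 ± 0.06) were lower. Qars was at 0.05 ± 0.04 (edgeR adjusted p = 0.406), with 259, 267, 270 and 247 CPM. Yars2 (-0.72 ± 0.07), Aars2 (-0.33 ± 0.07) and Ears2 (-0.29 ± 0.09) fell, and Nars2 was at 0.03 ± 0.10. Scaling by library totals alone gave 17 higher and 8 lower in place of 16 and 13.

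Between 24 h and 48 h the glutamine-free effect differed in 16 of the 36 genes, 12 of them in the positive direction, beside 23.5% of all genes tested (13.6% positive, 9.85% negative). The positive differences included 7 mitochondrial genes, with Pars2 (0.99 ± 0.13, edgeR adjusted p = 2.67e-08), Lars2 (0.83 ± 0.18), Tars2 (0.55 ± 0.07) and Mars2 (0.52 ± 0.07) among them. Lars2 was at 223, 161, 178 and 155 CPM at 24 h against 319, 266, 264 and 200 CPM in vehicle, and at 269, 281, 286 and 302 CPM at 48 h against 270, 238, 164 and 254 CPM. Its groups overlapped at both times, and vehicle library C had the lowest value at 48 h. Rars (-0.59 ± 0.09), Farsb (-0.37 ± 0.07), Hars (-0.33 ± 0.07) and Yars2 (-0.33 ± 0.09) had negative differences. Without vehicle library C at 48 h, Qars (0.17, edgeR adjusted p = 0.0336) and Nars (-0.22, edgeR adjusted p = 0.0441) passed as well.

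**Figure D4:**
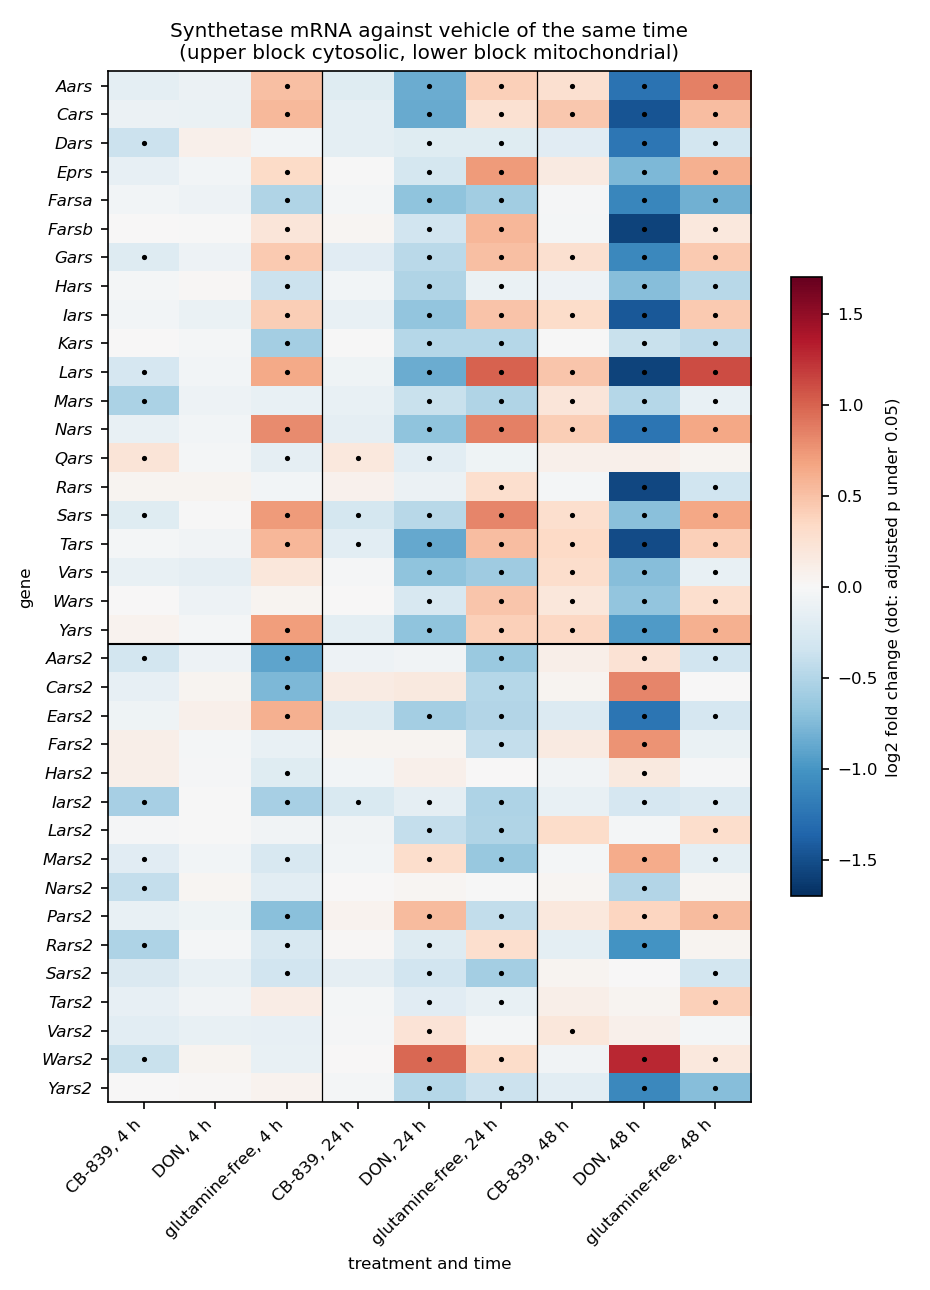
Log2 fold change of the 36 synthetase genes (rows) with CB-839, DON or glutamine-free medium against vehicle of the same time (columns, n = 4 libraries per group), with dots for an edgeR adjusted p under 0.05. Among the cytosolic rows 19 of 20 are lower with DON at 24 h and at 48 h, rows of both signs stand in the glutamine-free columns, and every row lies between -0.15 and 0.09 with DON at 4 h.

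DON and glutamine-free medium were each compared with the same vehicle libraries, so only their own values are set side by side. At 48 h Aars was at -1.26 ± 0.04 with DON and at 0.86 ± 0.04 without glutamine. Iars was at -1.44 ± 0.06 and 0.45 ± 0.06, Tars at -1.52 ± 0.05 and 0.40 ± 0.05, and Yars at -0.96 ± 0.05 and 0.61 ± 0.05, the 4 genes whose promoters hold TGATGCAA. Opposite signs also occurred in genes whose matched promoters lack these letters. Eprs (-0.76 ± 0.09 and 0.60 ± 0.09), Sars (-0.71 ± 0.06 and 0.66 ± 0.06), Gars (-1.10 ± 0.05 and 0.45 ± 0.05) and Farsb (-1.58 ± 0.04 and 0.18 ± 0.04) were lower with DON and higher without glutamine. Of these, Gars holds the looser match TGATGNAA. Whether the element has a part in any of these changes was not tested. Qars, also without the letters, was at 0.09 ± 0.04 and 0.05 ± 0.04, whereas Lars, which has no promoter in the table used here, was at -1.58 ± 0.06 and 1.11 ± 0.06. Kars was lower with both (-0.38 and -0.44), as were Farsa (-1.11 and -0.82) and Hars (-0.72 and -0.47). Wars2 was higher with both (1.28 and 0.18), and Yars2 lower with both (-1.09 and -0.72).

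The direct comparison sets glutamine-free libraries against DON libraries, with the vehicle libraries of the time entering only the filter, the scaling and the estimate of spread. At 24 h 15 cytosolic genes were higher without glutamine and none lower (median 0.93), beside 58.9% of all genes called (28.7% higher, 30.2% lower). Lars (1.84 ± 0.06, edgeR adjusted p = 6.59e-15), Nars (1.53 ± 0.07), Tars (1.38 ± 0.05), Sars (1.30 ± 0.07), Aars (1.25 ± 0.06) and Iars (1.16 ± 0.05) differed most, and Eprs differed by 1.02 ± 0.06. Qars was higher by 0.11 ± 0.04 (adjusted p = 0.0387). With the replicate letter as a block, which paired the libraries here, Mars was also called, as lower (-0.13, edgeR adjusted p = 0.0115 in place of 0.104), and so was the mitochondrial gene Yars2, as higher (0.11, adjusted p = 0.0311).

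Of the mitochondrial genes 1 was higher and 9 were lower without glutamine than with DON at 24 h, Pars2 (-0.96 ± 0.09), Mars2 (-0.95 ± 0.05), Wars2 (-0.66 ± 0.06) and Cars2 (-0.65 ± 0.10) foremost. Of all genes 28.7% were higher and 30.2% lower at that time. At 48 h 18 cytosolic genes were higher without glutamine and none lower (median 1.36), beside 68.6% of all genes called (34.6% higher, 34.1% lower). Lars differed by 2.68 ± 0.07, from between 91.3 and 103 CPM with DON to between 609 and 634 CPM without glutamine. Aars (2.13 ± 0.05), Cars (2.00 ± 0.05), Tars (1.92 ± 0.05), Nars (1.90 ± 0.06) and Iars (1.89 ± 0.06) came next, and Kars (-0.06) and Qars (-0.04 ± 0.04) did not pass. Mitochondrial genes counted 7 higher, with Ears2 (0.95 ± 0.09) and Nars2 (0.53 ± 0.10) among them, and 7 lower, led by Wars2 (-1.10 ± 0.05), Fars2 (-0.87 ± 0.06) and Cars2 (-0.82 ± 0.07).

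DON against CB-839 lowered 19 cytosolic genes and raised none at either time. The background was 59.7% of all genes called at 24 h (29% higher, 30.8% lower) and 70.4% at 48 h (35.7% higher, 34.7% lower), and the cytosolic medians were -0.48 and -1.20. Lars was at -0.77 ± 0.06 and -2.05 ± 0.06, Cars at -0.70 ± 0.07 and -1.93 ± 0.05, and Tars at -0.69 ± 0.05 and -1.86 ± 0.05. Qars was lower at 24 h (-0.36 ± 0.04, edgeR adjusted p = 6.77e-07) and at 0.00 after rounding at 48 h, the cytosolic gene that did not pass there (adjusted p = 0.936). Wars2 was higher by 0.97 ± 0.06 and 1.34 ± 0.05. At 24 h TMM gave 5 higher and 24 lower of the 36, and library totals alone 8 and 14.

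Glutamine-free medium against CB-839 gave 13 cytosolic genes higher and 5 lower at 24 h (58% of all genes called, 29.1% higher and 28.9% lower) and 8 higher and 6 lower at 48 h (51% called, 26.6% higher and 24.4% lower). Sars (1.13 ± 0.07), Lars (1.07 ± 0.06) and Nars (1.01 ± 0.07) were furthest apart at 24 h. By 48 h Lars differed by 0.64 ± 0.06, Aars by 0.59 ± 0.04 and Nars by 0.24 ± 0.06, and Farsa by -0.80 ± 0.07. With library totals alone the 48 h split of the 36 was 16 higher and 11 lower in place of 12 and 13.

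**Figure D5:**
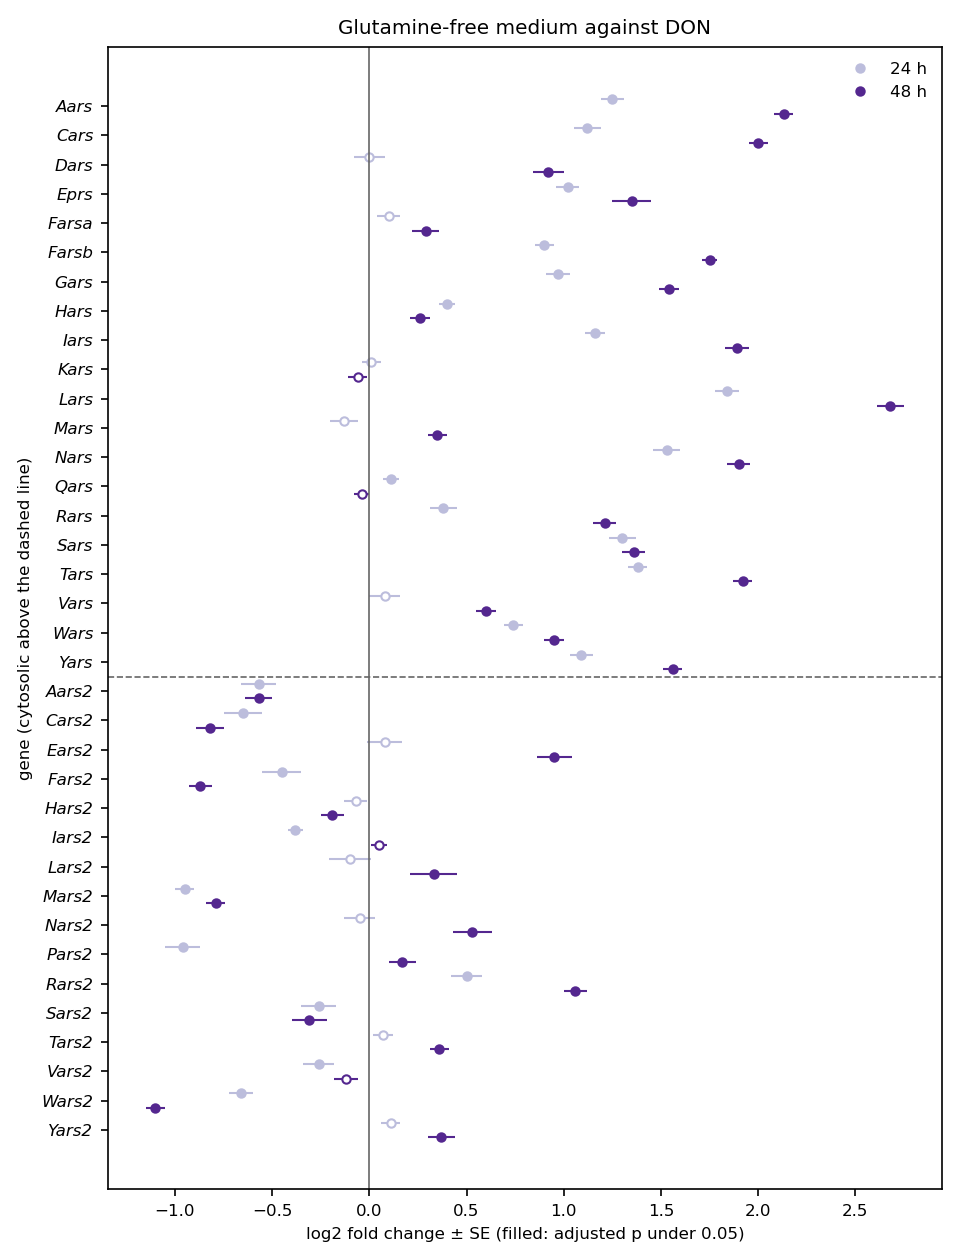
Log2 fold change of each of the 36 synthetase genes in glutamine-free medium against DON at 24 h and 48 h (n = 4 libraries per group). Bars show the SE, filled points an edgeR adjusted p under 0.05, and cytosolic genes stand above the dashed line. At 24 h the genes lie between -0.96 (Pars2) and 1.84 (Lars). At 48 h Lars lies furthest right and Wars2 furthest left.

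Genes that work beside the synthetases were read from short lists. Of the scaffold genes, Aimp2 (-0.95 ± 0.08) and Eef1e1 (-1.08 ± 0.06) fell with DON at 48 h and Aimp1 rose by 0.13 ± 0.05. Without glutamine Aimp2 (-0.48 ± 0.08) and Eef1e1 (-0.56 ± 0.06) fell at 48 h as well, and Aimp1 was at -0.01 ± 0.05. The list of mitochondrial elongation factor genes holds Tufm, Tsfm, Gfm1 and Gfm2. Of these 4, 4 fell without glutamine at 4 h, 3 at 24 h and 4 at 48 h, where 21.4%, 28.9% and 26.3% of all genes were lower. With DON 4 of 4 fell at 24 h and 3 of 4 at 48 h (29.9% and 35.6% of all genes lower) and 0 at 4 h, and with CB-839 1, 1 and 2 of 4 fell (6.64%, 2.48% and 6.73%). All 4 had risen with activation at each time, beside 33.9%, 38.7% and 38.3% of all genes higher.

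Of the amidotransferase genes and the formyltransferase gene Mtfmt, Qrsl1 (-0.29 ± 0.06) and Mtfmt (-0.31 ± 0.05) fell with DON at 24 h, and so they did without glutamine (-0.49 ± 0.06 and -0.33 ± 0.05). At 48 h Gatb fell with DON (-0.21 ± 0.06) and Mtfmt without glutamine (-0.30 ± 0.06), while Qrsl1 was at 0.04 ± 0.06 and -0.09 ± 0.06. Cytosolic elongation factor genes showed 3 of 5 higher and Eef1d lower (-0.56 ± 0.10) with DON at 48 h, 4 of 5 called beside 71.2% of all genes. Without glutamine 2 of 5 were higher and Eef1d lower (-0.67 ± 0.10), 3 of 5 called beside 54.3%, so both shares are near those of all genes.

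The list of uncharged tRNA signaling holds the kinase gene Eif2ak4, Atf4, and the ATF4 targets Ddit3, Trib3, Asns (asparagine synthetase, which is no tRNA synthetase) and Chac1. Without glutamine 5 of 6 rose at each time (16.2%, 30% and 28% of all genes higher), and Eif2ak4 fell at 4 h (-0.39 ± 0.05) and 48 h (-0.23 ± 0.05) and was at -0.10 ± 0.05 at 24 h. The rises had Asns at 1.96 ± 0.06, 1.85 ± 0.15 and 2.40 ± 0.09 and Atf4 at 0.62 ± 0.06, 0.50 ± 0.05 and 0.40 ± 0.07 at 4 h, 24 h and 48 h. With DON 5 of 6 fell at 24 h and 6 of 6 at 48 h (29.9% and 35.6% of all genes lower), among them Asns (-0.98 ± 0.15 and -1.47 ± 0.09), Trib3 (-1.0 ± 0.22 and -2.95 ± 0.11) and Atf4 (-0.84 ± 0.05 and -1.17 ± 0.07). CB-839 lowered 3 of 6 at 4 h and 4 of 6 at 24 h (6.64% and 2.48% of all genes lower), and at 48 h Asns (1.00 ± 0.09) and Trib3 (0.68 ± 0.09) rose, 2 of 6 beside 8.50% of all genes. These lists are small and were drawn up with earlier results of these data known.

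At 48 h the promoters of the synthetase genes were set against the authors' peak lists, 1 per treatment and mark. H3K27ac, a mark of active promoters and enhancers, had a peak within 1000 bases of the start in 29 of 36 genes in the vehicle list (80.6%, against 43.9% of the 15182 genes with a mean count of at least 10 at 48 h), 16 cytosolic and 13 mitochondrial. In the glutamine-free list 19 had one (52.8%, against 29.9%), of which 17 were shared, 58.6% of the vehicle genes and 89.5% of the glutamine-free ones. The overlap was not computed for the comparison genes, so the shared portions have no background beside them. The 12 genes with a vehicle peak only were Lars, Iars, Tars, Yars, Kars, Mars, Rars, Aars2, Cars2, Mars2, Nars2 and Pars2. Lars2 and Wars had a peak in the glutamine-free list only.

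The lists differ in length throughout: 9681 H3K27ac peaks for vehicle and 6687 for glutamine-free medium, but 117 for CB-839 and 33 for DON. With CB-839 Fars2 alone had a peak (0.672% of the comparison genes) and with DON 0 of 36 (0.211%). H3K27me3, a mark of silenced genes, had a peak within 1000 bases of the start of 0 genes in vehicle, DON and glutamine-free medium, where 10%, 3.37% and 6.60% of the comparison genes had one. In the CB-839 list 1 gene had one (10.3% of the comparison genes), Wars2, whose peak ends before the start at position 99140594 of chromosome 3. Each list pools 2 replicates, so no spread between replicates stands behind these counts, and no change between treatments is read from them.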

How the data were processed

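RNA-seq was deposited as whole-number counts per gene, which the authors made with featureCounts 2.0.1 over exons of GENCODE M25 (mm10) in paired mode and without a strand option, per the file headers. Per the submitters' processing notes, STAR, Bowtie2, FastQC, MACS2 and deepTools were used, with no version named. Peak lists were deposited 1 per treatment and mark, each merging 2 replicates at an IDR of 0.05. The authors' score columns of these lists were used only for the stricter filter of IDR 0.01, and the deposited peak positions only for overlap.

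From the counts, genes were filtered by group, scaled by TMM and tested with edgeR 4.0.16 quasi-likelihood fits (R 4.3.3, robust, Benjamini-Hochberg at 0.05 over all genes tested). The 16 libraries of a time shared a fit, unstimulated and vehicle libraries another, and the 48 stimulated libraries another for the difference between times. Levels are TMM-scaled CPM over all 52 libraries, divided by exon length where genes are compared. Common biological coefficients of variation were 0.173, 0.084 and 0.093 at 4 h, 24 h and 48 h, 0.132 for activation and 0.115 for the difference between times. Depth was 25.6 to 51 M counts per library. Of the genes 55141 had a symbol in the reference names. The fits were tested on simulated data.

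A promoter peak overlapped the 1000 bases either side of an annotated start by at least 1 base. RefSeq promoters gave the sequences and the starts from which elements were placed, whereas peaks were set against starts of the count annotation. No promoter was matched for Cars, Hars, Lars, Nars, Rars, Vars, Wars, Hars2 and Pars2.

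Genes to name in a comparison were the 6 largest changes per direction past the threshold with groups not overlapping, and Qars, Eprs, Ears2, Nars and Nars2. Not all of them are printed for every comparison, so a gene left unnamed may still have passed. Library values were given for Mars, Wars, Aars, Gars, Nars, Qars, Eprs, Sars, Lars2 and Ears2, those of Lars, Tars, Rars and Wars2 and the fold changes of other genes being added after their values were seen. The genes and lists were chosen with earlier results of these data known.

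Whether equal replicate letters pair libraries was checked by correlating their deviations from the mean of their group, over genes whose log2 CPM averaged 3 or more. All letters passed 0.1 in these comparisons: at 4 h CB-839 with vehicle (0.57 to 0.67) and DON with vehicle (0.21 to 0.66), at 24 h CB-839 with vehicle (0.59 to 0.76) and glutamine-free medium with DON (0.12 to 0.36), at 48 h DON with CB-839 (0.17 to 0.30). What libraries of a letter share is not given in the labels, and the fits reported have no block. Alternatives were DESeq2 1.42.0, RLE scaling, library totals alone, omission of the count filter, the replicate block, fits of all 52 libraries or of the 8 compared, each library left out, and for peaks another window and IDR.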

Additional observations from a re-analysis of the deposited data

Results flagged for a closer look

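A library lay far from the other 3 of its group in 5 of 130 pairs of a gene and a group, where about 1 in 20 is given by chance. Mars held 322 CPM in vehicle library B at 48 h, with the nearest other library at 344 CPM. Aars held 372 CPM in the same library, with the nearest at 398 CPM. Gars held 551 CPM in vehicle library D at 24 h (nearest 593 CPM) and 453 CPM in vehicle library C at 48 h (nearest 505 CPM), and Ears2 held 9.14 CPM in DON library C at 24 h (nearest 8.51 CPM).

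The effect of a treatment was compared between 24 h and 48 h by a test of the difference itself in edgeR. It differed in 10 of the 36 genes for CB-839, 27 for DON and 16 for glutamine-free medium. Of all 19925 genes tested, 2.15% differed for CB-839, 32.7% for DON and 23.5% for glutamine-free medium. As these shares are unlike, the counts do not rank the treatments.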

How the results depend on the processing

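Of 180 counts recomputed under another setting 169 stayed within 1.5 times, as did 188 of 192 with 1 library left out. With CB-839 at 4 h the 12 genes became 20 in a replicate block fit of the 8 libraries compared, and DON at 4 h went from 0 to 1 there. CB-839 at 24 h (4 genes) gave 10 with the replicate block, 0 in the fit of all 52 libraries, 1 in the fit of the 8 libraries and 15 with both block and 8 libraries. Leaving out single libraries gave 2 to 5. With CB-839 at 48 h the 13 genes became 2 with the block in the 8 libraries, where the letters were not paired (-0.53 to -0.07), and 12 to 18 with a library left out, 18 without vehicle C. For the glutamine-free difference between times the 16 genes became 14 to 20, 20 without vehicle C at 48 h (15 higher, 5 lower). The replicate block changed no other count by over 1.5 times, and of 756 pairs of a gene and a comparison it changed the call of 27, 21 gained and 6 lost, in 12 comparisons. These included Nars2 (-0.18, adjusted p = 0.0253) without glutamine at 4 h, and the losses were Vars2 with CB-839, Lars2 and Vars without glutamine, Iars2 and Mars2 in glutamine-free medium against CB-839 and Pars2 in it against DON, all at 48 h. For H3K27me3 a window of 2500 bases gave 1 gene in vehicle in place of 0 and 4 with CB-839 in place of 1, and 0 with CB-839 where the peak had to cover the start or at IDR 0.01. No H3K27ac peaks of the vehicle, CB-839 and glutamine-free lists were left at IDR 0.01. Under library totals alone the Qars change with DON turned to 0.01 at 24 h, and against CB-839 at 48 h to 0.16. The median of all genes then moved to 0.18 and 0.19 with DON and 0.13 and 0.12 without glutamine at 24 h and 48 h, and the mitochondrial counts with DON at 48 h became 10 higher and 4 lower. Of the single-gene values 2034 of 2091 under another setting and 2502 of 2544 with 1 library left out kept direction and side of the threshold. Genes of few CPM, such as Ears2, rest on few counts. The cause of these changes was not tested.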
